A study of Mus musculus with 8 samples.

Results

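Natural killer (NK) cells kept in interleukin-2 (IL-2) for 9 days, from day 4 with the ATM kinase inhibitor KU55933, were compared with fresh NK cells of mouse bone marrow. The comparison rests on 4 of the 8 arrays of the series, chosen by their labels alone: 2 arrays of inhibitor-treated day 9 cells (D9KU) and 2 arrays of fresh, or naive, cells (D0). The study also holds 2 arrays of day 9 cells without inhibitor (D9) and 2 of day 4 cells. All were Affymetrix Mouse Gene 2.0 ST arrays, hybridised with biotin-labelled copies of poly(A) RNA amplified in 1 round.

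For D9KU, marrow suspensions of mice were depleted of T cells through CD90, cultured with 1000 IU/mL of IL-2, given IL-2 again on day 4 together with 7.5 µM KU55933, and the adherent cells were taken on day 9. D9 cells had the same culture and timing and no inhibitor. A vehicle control is named in the treatment protocol, without stating if it was given to the D9 cells. D0 cells were freshly isolated NK cells of the same kind of marrow. A shared source label calls all the samples IL-2 activated, while title, description and days of activation set D0 at day 0. Culture, IL-2, adherence, 9 days and the inhibitor all separate D9KU from D0, so these cannot be told apart within that comparison, and D9 was used as the matched culture without inhibitor. Strain, sex, age and the number of mice behind an array are not given. The replicates are called biological, without saying whether they are separate mice or cultures, so the p-values measure only the spread between these samples.

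NK cells are innate lymphocytes that kill virus-infected and transformed cells by releasing granules of perforin and granzymes, under the balance of activating and inhibitory surface receptors. IL-2 acts through JAK kinases and STAT5 to make them divide, enlarge and load granules. ATM is a kinase activated by DNA double-strand breaks, which phosphorylates CHK2, p53 and histone H2AX, and KU55933 blocks its catalytic site.

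The median log2 signal of an array, over all its transcript clusters, was 3.66 to 3.71 on the 6 activated arrays and 3.90 and 3.91 on the fresh ones. Values on paired arrays correlated at 0.993 within D9KU and 0.976 within D0 across genes, which are not independent replicates. D0 replicates also differed most, with a root mean square SD of 0.164 in D9KU, 0.186 in D9 and 0.267 in D0. The first principal component, with 68.3% of the variance, placed both fresh arrays on one side and the 6 activated arrays on the other.

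The NK label was checked against 16 markers, all of which were tested and none of which lay under the array median in both arrays of D9KU or of D0. Of these 7 (43.8%) were called higher and 5 (31.2%) lower in D9KU (5 and 7 with arrays centred). Over all tested genes 37.3% were called higher and 21.9% lower. Gzmb and Prf1, bright granule genes described below, were among the markers called higher. The summed signal of the 16 markers was 14.84 and 14.78 in D9KU and 14.12 and 14.22 in D0 (log2). That sum includes Gzmb and Prf1, so its rise does not stand apart from theirs. The median difference of the 16 markers was 0.21 (-0.09 centred). Ncr1, which encodes the NK receptor NKp46, measured 10.29 and 10.35 in D9KU and 10.61 and 10.70 in fresh cells. Markers of several other marrow cell types had higher signal in the fresh arrays. B cell markers summed to 6.46 and 6.55 in D9KU and to 10.48 and 10.60 in D0, and all 7 tested ones were called lower. Likewise 7 of 7 megakaryocyte and platelet markers, 16 of 18 macrophage and monocyte markers and 9 of 11 dendritic cell markers were lower in D9KU. Both D9KU arrays lay under their array median for 7 of the 18 macrophage markers and 2 of the 7 B cell markers. The same held for 2 of the 7 platelet markers and 1 of the 11 dendritic cell markers. Macrophage markers summed to 10.30 and 10.39 in D9KU and to 11.91 and 12.06 in D0, dendritic cell markers to 10.59 and 10.69 in D9KU and to 12.98 and 12.96 in D0, and platelet markers to 6.81 and 6.73 in D9KU and to 11.18 and 11.33 in D0. The neutrophil sum went the other way, at 11.01 and 11.08 in D9KU and 8.59 and 8.46 in D0. That sum is carried by Ctsg, cathepsin G: 6 of 16 neutrophil markers were lower in D9KU, the granule proteins S100a8 and S100a9 among them, and 3 were higher. For 8 of the 16 both D9KU arrays lay under their array median. T cell markers summed to 11.49 and 11.61 in D9KU and to 10.08 and 10.20 in D0. Among them Thy1, the CD90 antigen used for the depletion, stood at 10.34 and 10.47 in D9KU and 8.20 and 8.15 in D0, and Cd3g at 9.12 and 9.43 in D9KU and 7.28 and 7.65 in D0. Cd4, Cd5, Cd6, Cd8b1 and Bcl11b were lower in D9KU. In arrays of whole populations, fewer cells of a type and less RNA per cell cannot be told apart.

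**Figure D1:**
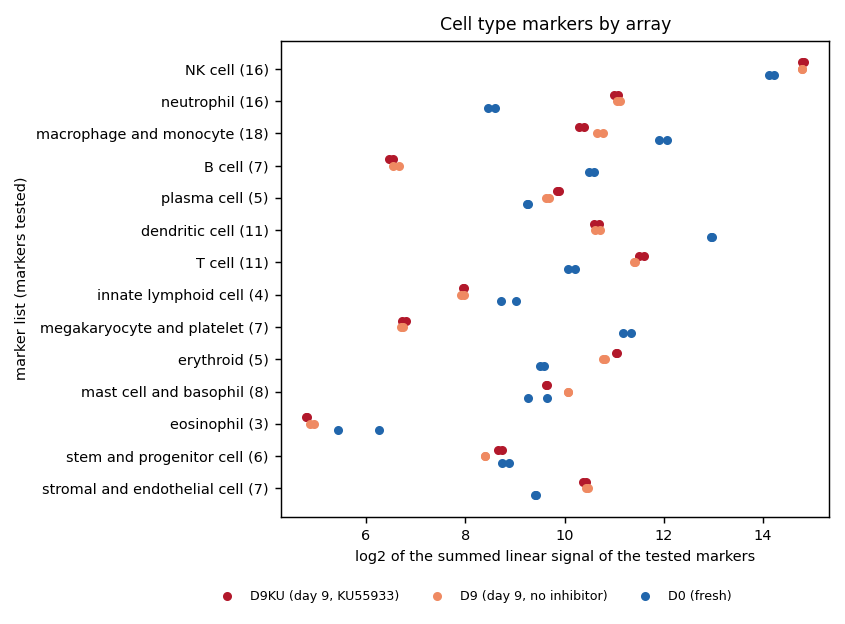
Log2 of the summed linear signal of the tested markers of each cell type (number tested in brackets), one point per array, for D9KU, D9 and D0. The B cell, platelet, dendritic cell and macrophage sums are lower in D9KU and D9 than in both fresh arrays. The NK cell, neutrophil, T cell, plasma cell, erythroid and stromal sums are higher.

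With arrays centred, 11 neutrophil, 5 stromal and 3 eosinophil markers were lower, in place of 6, 1 and 1. Among the remaining marker lists, plasma cell markers had 1 of 5 higher and 4 lower in D9KU. The sums were 9.84 and 9.89 in D9KU and 9.25 and 9.27 in D0. Xbp1 was the 1 marker that rose (1.59), so the higher sum came from it, while Jchain fell by 4.92. Erythroid markers had 2 of 5 higher and 3 lower, mast cell and basophil markers 1 of 8 higher and 5 lower, and stem and progenitor markers 0 of 6 higher and 3 lower. Without D9KU replicate 1, only 1 erythroid marker was called lower. Eosinophil markers had 1 of 3 lower, innate lymphoid markers 1 of 4 each way, and stromal and endothelial markers 1 of 7 each way. These small lists moved with single arrays: without D0 replicate 1 the eosinophil count lower was 3, and without D0 replicate 2 there were 2 innate lymphoid markers higher and 3 stromal ones lower, while leaving out D0 replicate 1 or either D9 array gave 2 stromal ones.

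The D9KU cells differed from fresh cells across most of the measured genes. Of 13998 genes tested, 8279 (59.1%) were called at an adjusted p below 0.05, 5217 (37.3%) higher and 3062 (21.9%) lower in D9KU. Differences of at least 2-fold were called for 3966 genes (28.3%), 2732 (19.5%) higher and 1234 (8.82%) lower, and at least 8-fold differences for 153 higher and 172 lower. Over all tested genes the median difference was 0.11 and its median size 0.56. All differences are on the log2 scale, D9KU minus D0 unless another pair is named, with the standard error of the limma fit after the ± sign and a Benjamini-Hochberg adjusted p over all 13998 genes.

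The tested genes differed in level: their median was 0.30 higher in D9KU than in D0. Over all transcript clusters the array median went the other way, at 3.70 and 3.66 in D9KU and 3.91 and 3.90 in D0. The shift is therefore one of the tested genes and not of the whole arrays. With each array centred on that median, 9191 genes were called, 3984 higher and 5207 lower, so 43.35% of calls were higher, in place of 63.01% in the values as deposited. The same direction was called both ways for 7046 genes. Increases smaller than this shift turn into decreases with centring, and 3 of the 8279 called genes changed sign that way. Of all tested genes, 28.5% were then higher and 37.2% lower. The genes and lists below are given as deposited, with the centred median and counts beside each list, to be read against these shares. Where both arrays of a group lay under their own array median, signal cannot be told from background, and a difference states only how far the other group stood above that range.

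**Figure D2:**
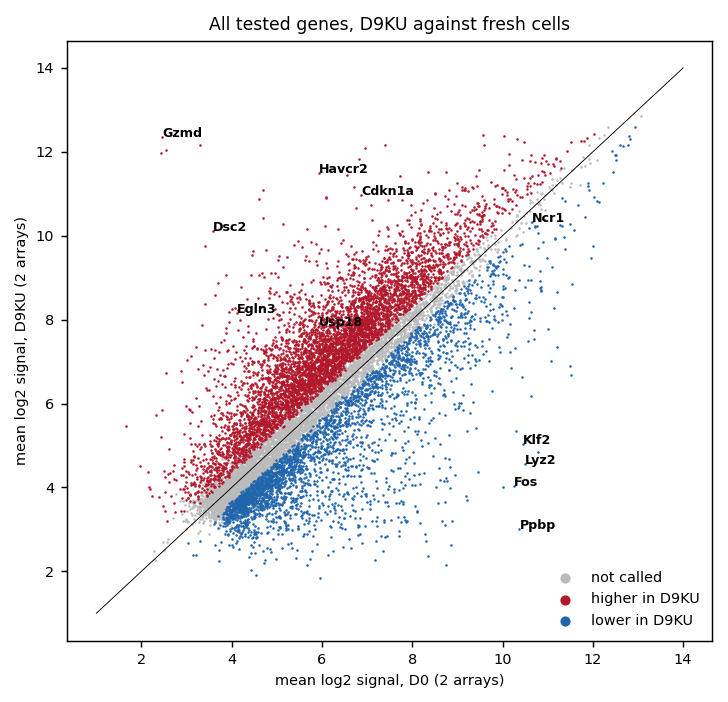
Mean log2 signal of the 2 D9KU arrays (vertical axis) against that of the 2 fresh arrays (horizontal axis) for each of 13998 tested genes, coloured by whether the gene was called higher, lower or neither, with the line of equal signal. The granzyme Gzmd stands farthest above the line and the platelet gene Ppbp is among the farthest below it.

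The 4 largest increases of the whole comparison were Gzmd, Gzmf, Gzmg and Gzmc, granzymes of the chymase cluster on chromosome 14 that mouse lymphocytes express after long stimulation. Both fresh arrays were under their array median for these 4 and for Gzmn, which therefore passed the filter through activated arrays. Of 24 tested members of a list of granule proteases and killing genes, 16 rose and 1 fell, with a median of 1.38 (1.08 centred, with 14 higher and 1 lower).

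The start regions of these 4 genes are shown because the genes moved together and their windows share sequence. Each is 300 bases of RefSeq (GRCm38.p6), 250 before to 50 after the gene start, written along the gene's own minus strand, with capitals on a run of 20 bases found in all of them.
Gzmc chr14:56234608-56234907: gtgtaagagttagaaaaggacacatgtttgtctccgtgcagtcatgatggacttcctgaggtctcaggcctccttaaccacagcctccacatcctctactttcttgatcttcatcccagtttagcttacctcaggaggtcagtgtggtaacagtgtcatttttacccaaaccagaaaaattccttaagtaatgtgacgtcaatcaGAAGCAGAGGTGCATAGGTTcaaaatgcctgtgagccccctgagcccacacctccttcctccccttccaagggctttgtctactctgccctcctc
Gzmd chr14:56132544-56132843: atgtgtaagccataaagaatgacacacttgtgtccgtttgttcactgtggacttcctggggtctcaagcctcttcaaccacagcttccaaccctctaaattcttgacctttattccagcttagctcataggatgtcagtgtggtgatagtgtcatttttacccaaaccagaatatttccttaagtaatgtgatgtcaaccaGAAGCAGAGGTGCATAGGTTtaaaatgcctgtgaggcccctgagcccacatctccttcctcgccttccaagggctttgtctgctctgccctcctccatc
Gzmf chr14:56211358-56211657: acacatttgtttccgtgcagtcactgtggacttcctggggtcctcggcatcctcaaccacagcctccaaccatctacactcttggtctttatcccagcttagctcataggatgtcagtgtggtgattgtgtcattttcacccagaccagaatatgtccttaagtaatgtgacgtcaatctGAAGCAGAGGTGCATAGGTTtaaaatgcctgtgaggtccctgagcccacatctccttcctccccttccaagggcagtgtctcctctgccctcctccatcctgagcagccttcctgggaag
Gzmg chr14:56159530-56159829: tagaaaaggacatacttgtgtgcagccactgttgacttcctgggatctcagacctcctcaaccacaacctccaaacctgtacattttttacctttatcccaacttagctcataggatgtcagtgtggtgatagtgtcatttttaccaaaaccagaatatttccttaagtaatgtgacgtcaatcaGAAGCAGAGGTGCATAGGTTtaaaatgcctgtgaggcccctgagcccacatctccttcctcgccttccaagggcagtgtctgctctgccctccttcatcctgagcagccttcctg
Aligned end to end, these windows were between 74.6% (Gzmc and Gzmf) and 84.8% (Gzmf and Gzmg) identical to each other and between 46.8% and 51.9% identical to that of Gzmb. The shared run occurs in 5 of 32851 windows of the table, those of Gzmc, Gzmd, Gzme, Gzmf and Gzmg, and not in the Gzmb window. Near-identical copies can also share array probes, so values of Gzmc to Gzmg may not be independent.

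Gzmd (transcript cluster 17306991) measured 12.41 and 12.32 in D9KU and 2.65 and 2.28 in fresh cells, a difference of 9.90 ± 0.14 (adjusted p = 5.67e-08). Gzmf measured 12.09 and 11.88 in D9KU and 2.88 and 1.97 in fresh cells (9.56 ± 0.26, adjusted p = 3.24e-07). Gzmg stood at 12.07 and 12.01 in D9KU against 2.85 and 2.25 in fresh cells (9.49 ± 0.19). In these genes the D9KU arrays lay near the top of the signal range, while both fresh arrays lay under their own array median. Gzmc behaved alike, with 12.20 and 12.13 in D9KU and 3.08 and 3.50 in fresh cells. Gzmb, the granzyme that triggers caspases in target cells, was already bright in fresh cells (12.43 and 12.39 in D9KU, 9.36 and 9.76 in D0) and rose 7.21-fold. Prf1, the pore-forming perforin, measured 12.23 and 12.09 in D9KU and 9.53 and 9.65 in D0, a 5.92-fold rise (adjusted p = 1.45e-06). The arrays of the groups did not overlap for any of these 6 genes, as for 10787 (77.1%) of all tested genes. Gzma rose 1.52-fold, and the granzymes Gzmk (-0.14, adjusted p = 0.627) and Gzmm (-0.29, adjusted p = 0.364) were not called. Serpinb9b, of the serpin family that inhibits granule proteases, rose by 4.82 ± 0.19. Ctsg, a protease gene of the same chromosome 14 cluster and a neutrophil granule protein, measured 10.83 and 10.91 in D9KU and 5.03 and 4.19 in D0. Against D9, no granule gene was called, and Gzmd differed by -0.08 with a 95% interval of -0.40 to 0.24.

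**Figure D3:**
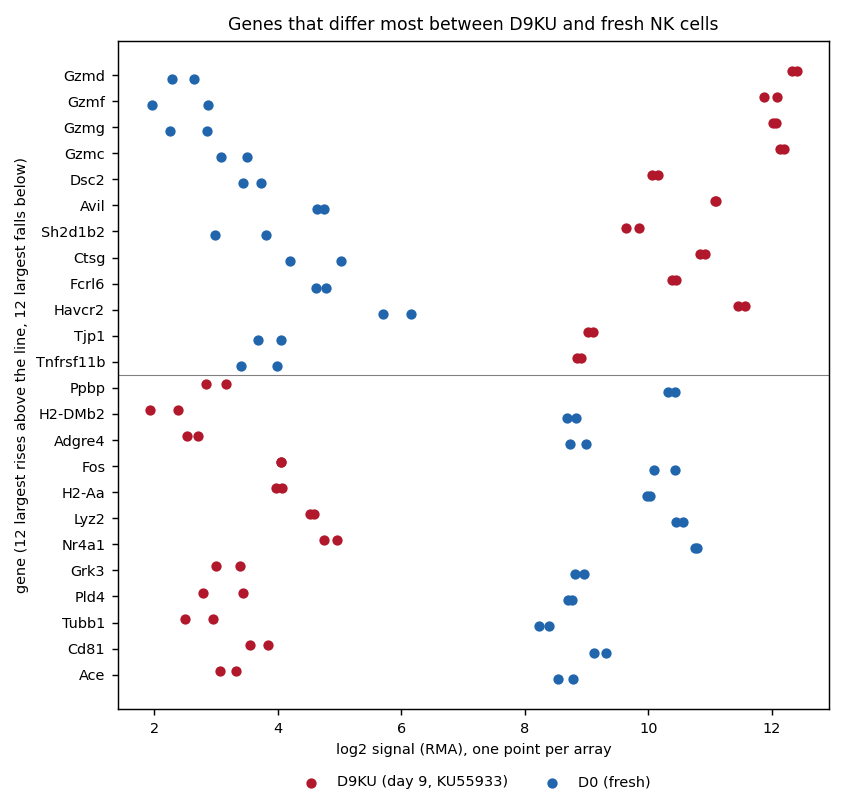
Log2 signal on each D9KU and fresh array for the 12 genes with the largest increases (upper part) and the 12 with the largest decreases (lower part) by the naming rule, one point per array. For all 24 genes the arrays of the groups are separated, with Gzmd at 12.41 and 12.32 in D9KU and at 2.65 and 2.28 in fresh cells.

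The other genes among the 12 largest increases had varied roles. Dsc2, a desmosomal cadherin, measured 10.06 and 10.16 in D9KU and 3.73 and 3.44 in D0, with both fresh arrays under their array median (6.53 ± 0.13). Avil, the actin-binding protein advillin, stood at 11.09 and 11.08 in D9KU and 4.64 and 4.75 in D0 (6.39 ± 0.11, adjusted p = 6.92e-08). Tjp1, the tight junction scaffold ZO-1, and Tnfrsf11b, the soluble decoy receptor osteoprotegerin, each rose by 5.19. The fresh arrays were dim for these genes and the D9KU arrays were not, without overlap. Sh2d1b2, an adaptor of SLAM family receptors whose fresh arrays were under the median too, rose by 6.35 ± 0.25 and Fcrl6, a receptor for MHC class II, by 5.71 ± 0.12.

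Several of the 12 largest decreases were in genes known from platelets, myeloid or antigen-presenting cells. Ppbp, a platelet chemokine, measured 3.16 and 2.84 in D9KU and 10.32 and 10.43 in D0 (-7.37 ± 0.20, adjusted p = 3.24e-07). Tubb1, the platelet tubulin, measured 2.50 and 2.95 in D9KU and 8.23 and 8.39 in D0. Lyz2, the lysozyme of macrophages and granulocytes, stood at 4.52 and 4.58 in D9KU and 10.45 and 10.56 in D0 (-5.95 ± 0.12). The macrophage, dendritic cell and platelet marker sums given above include Lyz2, H2-Aa and Ppbp, so they do not stand apart from these genes. The part of other cell types in these decreases was not tested. The MHC class II genes H2-DMb2 and H2-Aa fell by 6.59 and 5.99, the myeloid receptor Adgre4 by 6.24 and the phospholipase gene Pld4 by 5.62. Grk3, a kinase that desensitises G protein-coupled receptors, fell by 5.69, the tetraspanin gene Cd81 by 5.52 and Ace, angiotensin-converting enzyme, by 5.47. Both D9KU arrays lay under their array median for Ppbp, Tubb1, H2-DMb2, Adgre4, Pld4, Grk3 and Ace, so these differences are limited by the low end of the signal. The other 2 of the 12 largest decreases, Fos and Nr4a1, are immediate-early genes described further on.

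NK receptors moved both ways. Of 27 tested NK receptors and adaptors, 13 rose and 10 fell, with a median of 0.15 (-0.15 centred, with 12 higher and 13 lower), so the list had no common direction. Klra5, a Ly49 receptor, measured 10.27 and 10.31 in D9KU and 5.43 and 4.86 in D0 (5.14 ± 0.18, adjusted p = 8.63e-07), although Ly49 genes are close relatives that arrays may not separate. Klrg1, an inhibitory lectin receptor of mature NK cells, measured 10.70 and 10.77 in D9KU and 6.89 and 7.28 in D0 (3.65 ± 0.15). Both receptors were well separated between the groups. Fcgr3, the Fc receptor of antibody-dependent killing, rose by 2.94 ± 0.16. Klrk1, which encodes the activating receptor NKG2D, measured 9.19 and 9.29 in D9KU and 9.81 and 9.91 in D0 and fell 1.54-fold (adjusted p = 0.00147). Slamf6, under the array median in both D9KU arrays, fell by 3.21 (-1.97 with the mean of its transcript clusters), and Cd226, the receptor DNAM-1, by 1.69. The NKp46 gene Ncr1 was lower by 0.63 with arrays centred, since the shift between medians of the tested genes went the other way. As deposited it was 1.26-fold lower (adjusted p = 0.0255). It lost its call without D9KU replicate 1, D9KU replicate 2 or D0 replicate 2.

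Of 20 tested inhibitory receptors and exhaustion-linked genes, 12 rose (60%, against 37.3% of all genes) and 4 fell (20%, against 21.9%). The median was 1.07 (0.77 centred, with 12 higher and 6 lower). Havcr2, which encodes the inhibitory receptor TIM-3, measured 11.45 and 11.56 in D9KU and 5.71 and 6.15 in D0 (5.58 ± 0.15, adjusted p = 3.24e-07). Tigit measured 8.64 and 8.65 in D9KU and 4.34 and 5.36 in D0 (3.80 ± 0.28). Cd96, which like TIGIT binds the nectin-like protein CD155, rose 6.60-fold, and Ctla4 rose 4.68-fold. The direction was not shared by the whole list. Btla, an inhibitory receptor abundant on B cells, measured 3.57 and 3.40 in D9KU and 7.11 and 6.997 in D0, both D9KU arrays being under their median, and the 7 B cell markers fell as well. Pdcd1, which encodes PD-1, was dim throughout, at 3.81 and 3.78 in D9KU and 4.38 and 4.46 in D0, and fell by 0.62. Lag3 measured 5.55 and 5.59 in D9KU and 5.57 and 5.67 in D0 and was not called (adjusted p = 0.754), but was called lower with arrays centred (-0.35). The ectoenzyme gene Entpd1, which encodes CD39, rose 3.39-fold.

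IL-2 signalling genes rose in 14 (63.6%, against 37.3% of all genes) and fell in 3 (13.6%, against 21.9%) of 22 tested. The median was 0.84 (0.55 centred, with 13 higher and 7 lower). Il2ra, the high-affinity subunit of the IL-2 receptor, measured 9.90 and 9.86 in D9KU and 5.50 and 5.44 in D0 (4.40 ± 0.11, adjusted p = 2.78e-07). Il7r, the IL-7 receptor subunit carried by early lymphoid cells, did the opposite, with 3.23 and 3.09 in D9KU and 7.96 and 8.40 in D0 (-5.02 ± 0.19), with both D9KU arrays under their median. Ccnd2, a cyclin of G1 phase, and the survival gene Bcl2 rose by 1.94 and 1.93. Myc was not called as deposited (-0.20, adjusted p = 0.143), but was called lower with arrays centred or after quantile normalization (-0.56, adjusted p = 0.00395). Costimulatory receptors of the TNF receptor family rose in 9 (56.2%) and fell in 5 (31.2%) of 16 tested. The median was 0.67 (0.38 centred, with 8 higher and 6 lower). Tnfrsf9, which encodes 4-1BB, measured 12.12 and 12.05 in D9KU and 7.03 and 6.88 in D0 (5.13 ± 0.11). Tnfrsf8, which encodes CD30, measured 9.58 and 9.50 in D9KU and 4.81 and 4.11 in D0. For both, each D9KU array stood far above each fresh array. Tnfrsf26, another member of the family, rose by 2.39 ± 0.15, and Cd27, a marker of less mature NK cells, fell by 0.61.

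NK transcription factors split into 11 higher and 13 lower of 27 tested, with a median of -0.26 (-0.55 centred, with 9 higher and 13 lower). Klf2, which maintains quiescence and recirculation of lymphocytes, measured 5.03 and 5.04 in D9KU and 10.45 and 10.47 in D0 (-5.43 ± 0.16, adjusted p = 4.19e-07). Zbtb32, induced in proliferating NK cells, measured 8.72 and 8.59 in D9KU and 5.21 and 5.21 in D0 (3.45 ± 0.14). These were the largest changes of the list in each direction. The paired T-box factors of NK cells moved apart: Eomes measured 9.80 and 9.78 in D9KU and 8.89 and 8.56 in D0 and rose 2.10-fold, while Tbx21, which encodes T-bet, measured 7.13 and 6.92 in D9KU and 8.26 and 8.57 in D0 and fell 2.62-fold. Tox, required for NK development, fell by 1.95, and Ikzf3, the Ikaros family factor Aiolos, by 1.71. Nfil3, another factor of NK development, rose by 1.82 ± 0.12.

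Immediate-early genes, the transcription factors and feedback regulators switched on within minutes of a stimulus, were lower in D9KU as a group. Of 26 tested, 23 fell and 3 rose, with a median of -1.70 (-2.001 centred, with 3 higher and 23 lower). Fos measured 4.05 and 4.04 in D9KU and 10.09 and 10.43 in D0 (-6.21 ± 0.15, adjusted p = 2.63e-07). Nr4a1, an orphan nuclear receptor induced by antigen and activating receptors, measured 4.74 and 4.95 in D9KU and 10.76 and 10.79 in D0 (-5.93 ± 0.15). Fosb and Zfp36, whose protein degrades cytokine messages, fell by 5.08 and 3.16. All of these were bright on the fresh arrays and low or moderate in D9KU, without overlap. The fresh cells had been handled for isolation and the D9KU cells taken from culture by adherence, and the part of handling in these values was not tested. The 3 members that rose were Ier3 (1.68), Nr4a3 (1.41) and Fosl2 (1.24), picked here after their values were seen. MAP kinase feedback phosphatases and Sproutys rose in 8 (53.3%, against 37.3% of all genes) and fell in 5 (33.3%, against 21.9%) of 15 tested. The median was 0.51 (0.22 centred, with 7 higher and 6 lower). Spry4, a Sprouty inhibitor of receptor tyrosine kinase signalling, rose by 2.08 ± 0.11 and Rasa2, a RAS GTPase-activating protein, by 1.39 ± 0.11, whereas the phosphatase genes Dusp1 and Dusp2, which are immediate-early genes themselves, fell by 2.95 and 1.61.

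Secreted signals and homing receptors were mostly lower. Of 27 listed cytokines and chemokines 19 were tested, 12 of them lower and 3 higher, with a median of -0.78 (-1.08 centred, with 3 higher and 14 lower), and 6 lay below the filter. Ccl3, a chemokine that recruits macrophages and NK cells, measured 9.37 and 9.59 in D9KU and 11.95 and 11.98 in D0 (-2.48 ± 0.12, adjusted p = 1.91e-06). Ccl4, its close relative, measured 7.33 and 7.35 in D9KU and 10.00 and 9.86 in D0 (-2.59 ± 0.12). Ifng, the main macrophage-activating cytokine of NK cells, measured 6.497 and 6.97 in D9KU and 8.08 and 8.36 in D0 and fell 2.79-fold. The dendritic cell chemoattractant Xcl1 fell by 1.54. Cxcl9 and Ccl9, chemokines made largely by myeloid cells, fell by 2.72 and 2.18, and the macrophage and dendritic cell marker sums were lower as well. Csf2, which encodes GM-CSF, was the largest increase of this list, at 6.17 and 6.65 in D9KU and 2.93 and 4.36 in D0, with a fresh pair that spread widely.

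Receptors of migration fell in 10 and rose in 4 of 15 tested (20 listed), with a median of -1.27 (-1.57 centred, with 3 higher and 10 lower). Cxcr4, which retains cells in marrow, measured 5.51 and 5.32 in D9KU and 9.47 and 9.35 in D0 (-3.99 ± 0.14, adjusted p = 8.63e-07). S1pr5, which NK cells use to leave marrow and lymph nodes, measured 4.41 and 4.29 in D9KU and 8.16 and 7.60 in D0 (-3.53 ± 0.18). Ccr7, the receptor for lymph node homing, fell by 2.38, and Gpr183, an oxysterol receptor also carried by B cells and dendritic cells, by 3.18. The largest of the 4 increases was Ltb4r1, the leukotriene B4 receptor, with 8.32 and 8.12 in D9KU and 4.57 and 4.00 in D0. Integrins and adhesion molecules fell in 13 and rose in 5 of 19 tested, with a median of -0.59 (-0.88 centred, with 4 higher and 14 lower). The collagen receptor chains moved in opposite directions. Itga1, the CD49a chain of tissue-resident NK cells, measured 8.62 and 8.60 in D9KU and 4.84 and 5.03 in D0 (3.67 ± 0.12), while Itga2, the CD49b chain of circulating NK cells, measured 6.46 and 6.48 in D9KU and 9.28 and 9.34 in D0 (-2.84 ± 0.12). Itgam, the CD11b chain of mature NK and myeloid cells, fell by 3.06 and the laminin receptor chain Itga6 by 2.81. Cadherins, desmosomal proteins and their partners rose in 12 and fell in 1 of 14 tested (19 listed, 5 of them below the filter), with a median of 1.00 (0.70 centred, with 10 higher and 1 lower). Dsg2, the desmoglein partner of Dsc2, measured 7.31 and 7.40 in D9KU and 2.95 and 3.47 in D0, Cdh17 measured 7.95 and 7.94 in D9KU and 4.05 and 3.82 in D0, and Cdh1, which encodes E-cadherin, a ligand of the receptor KLRG1, rose 3.96-fold. With the mean of their clusters, Cdh1 differed by 1.07 in place of 1.98 and Dsg2 by 2.11 in place of 4.15. Dsg2, Dsc2, Dsg3, Dsp and Dsc1, 5 of the 14 tested, lay under the array median in both fresh arrays and passed the filter through activated arrays, so the count is tilted to increases. With no filter, 12 of 19 were higher and 1 lower. The stromal and endothelial marker sum was 10.38 and 10.43 in D9KU and 9.40 and 9.42 in D0. Of its 7 tested markers only Pecam1 rose, which leukocytes express too, and the collagen genes Col1a1, Col1a2 and Col3a1 were not called.

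**Figure D4:**
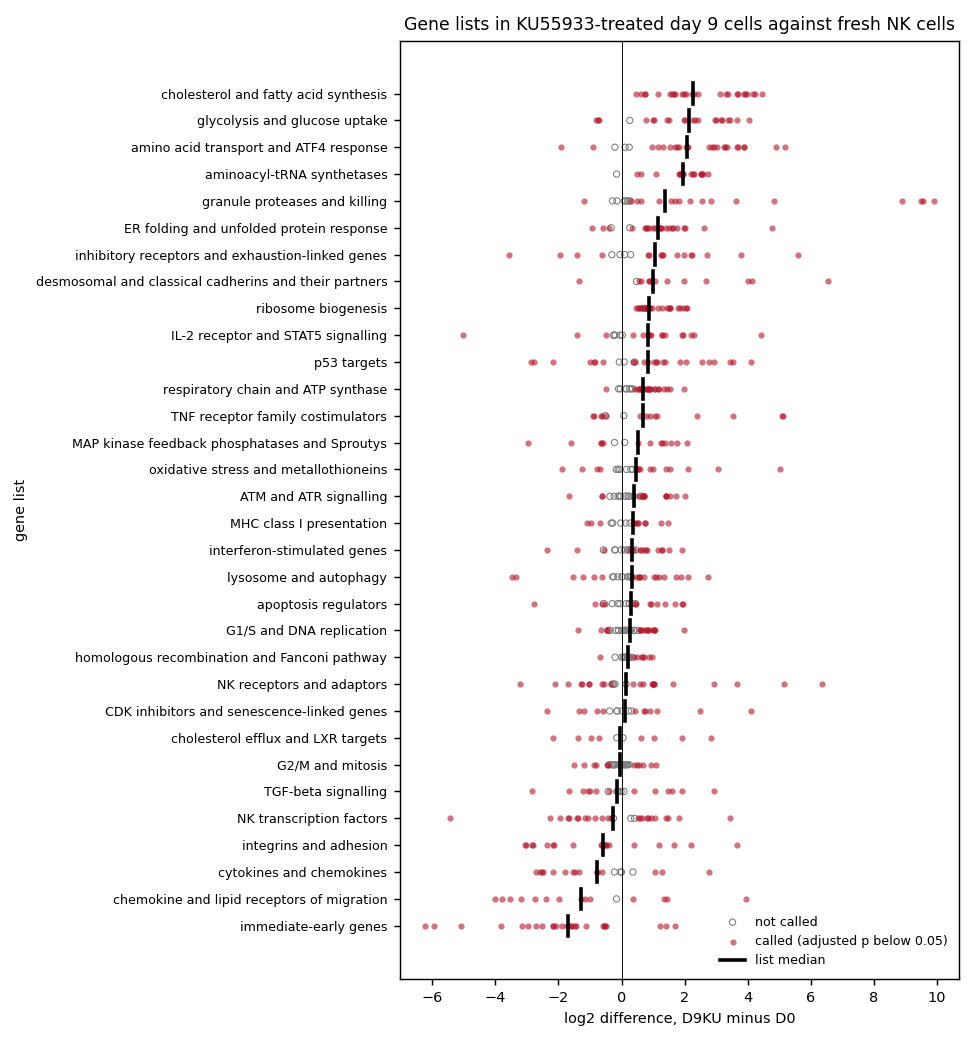
Log2 difference, D9KU minus D0, for every tested member of 32 gene lists, one point per gene, filled where called and open where not, with the list median as a black bar. Cholesterol synthesis, glycolysis, amino acid transport and tRNA synthetase genes have medians near or above 2, and immediate-early genes have the lowest median.

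Biosynthetic genes were higher across several pathways. Synthesis of cholesterol and fatty acids was represented by 26 tested genes, of which 26 rose, with a median of 2.26 (1.97 centred, with 25 higher and 0 lower), against a background of 37.3% of all genes higher. Hmgcs1, the first committed enzyme of the mevalonate pathway, measured 11.10 and 11.22 in D9KU and 6.75 and 6.66 in D0 (4.45 ± 0.11, adjusted p = 2.78e-07). Cyp51, the lanosterol demethylase, measured 9.06 and 9.19 in D9KU and 4.98 and 4.92 in D0 (4.17 ± 0.11). Sqle and Hsd17b7, later enzymes of the same pathway, rose by 3.99 and 3.36. None of these genes overlapped between the groups. Cholesterol efflux and LXR target genes had 4 higher and 4 lower of 10 tested, with a median of -0.05 (-0.35 centred, with 3 higher and 4 lower). Npc1, which exports cholesterol from lysosomes, rose 7.18-fold (2.84, or 1.33 with the mean of its clusters, on the log2 scale) and the phospholipid enzyme gene Lpcat3 3.75-fold, while Apoe, abundant in macrophages, and the cholesterol exporter Abca1 fell by 2.16 and 1.38.

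Genes of amino acid supply followed. Of 28 tested genes of amino acid transport and the ATF4 response, 23 rose and 2 fell, with a median of 2.09 (1.79 centred, with 23 higher and 3 lower). Slc7a5, the transporter of large neutral amino acids, measured 11.49 and 11.43 in D9KU and 6.58 and 6.52 in D0 (4.91 ± 0.10, adjusted p = 1.46e-07). Shmt2, the mitochondrial serine enzyme of one-carbon metabolism, measured 10.36 and 10.38 in D9KU and 7.10 and 7.13 in D0 (3.26 ± 0.10). Slc7a3 and Slc7a1, transporters of arginine and lysine, rose by 3.87 and 3.26. Both fresh arrays were under their median for 4 of the 28, Slc7a3 among them, which passed the filter through activated arrays. No matched member of the list lay below the filter. Atf4 itself was not called. Of 18 tested aminoacyl-tRNA synthetases 17 rose and 0 fell, with a median of 1.94 (1.64 centred, with 16 higher and 1 lower). Examples were Iars at 2.76 ± 0.10, Gars at 2.51 ± 0.11 and Lars at 2.21 ± 0.11, and Vars was not called. Ribosome biogenesis genes rose in 27 of 28 tested, with a median of 0.88 (0.58 centred, with 24 higher and 0 lower), among them the pre-rRNA processing genes Nop14 (2.03 ± 0.12) and Nob1 (1.96 ± 0.12).

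Genes of energy metabolism were mostly higher as well. Glycolysis and glucose uptake genes rose in 18 and fell in 3 of 22 tested, with a median of 2.13 (1.84 centred, with 18 higher and 3 lower). Pgk1, phosphoglycerate kinase, measured 11.56 and 11.47 in D9KU and 8.33 and 8.35 in D0 (3.18 ± 0.10, adjusted p = 6.06e-07). Slc16a1, the lactate and pyruvate transporter MCT1, measured 8.65 and 8.67 in D9KU and 5.17 and 5.27 in D0 (3.44 ± 0.11). Gapdh, often used as a constant control, rose 5.04-fold. The 3 that fell were the regulatory kinases Pfkfb3 and Pfkfb4 and the myeloid hexokinase Hk3. Respiratory chain and ATP synthase genes rose in 21 and fell in 1 of 29 tested, with a median of 0.68 (0.38 centred, with 16 higher and 3 lower). Sdhd, a subunit of complex II, rose 3.93-fold and Ndufa8, of complex I, 2.54-fold.

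Genes of the endoplasmic reticulum rose in 19 and fell in 3 of 24 tested, with a median of 1.14 (0.85 centred, with 18 higher and 4 lower). Ero1a, the oxidase that drives disulfide formation, measured 12.16 and 12.18 in D9KU and 7.49 and 7.32 in D0 (4.77 ± 0.13, adjusted p = 2.82e-07). Eif2ak3, which encodes the stress kinase PERK, rose by 2.61 ± 0.11, while the chaperone gene Hspa5 was lower, by 0.59. Oxidative stress genes and metallothioneins rose in 10 (50%, against 37.3% of all genes) and fell in 4 (20%, against 21.9%) of 20 tested. The median was 0.44 (0.15 centred, with 7 higher and 7 lower). Mt2, a metal-binding metallothionein, measured 11.86 and 11.81 in D9KU and 6.61 and 7.03 in D0 (5.01 ± 0.15), and its neighbour Mt1 rose by 3.06 ± 0.14. Gpx1, a peroxidase, fell by 1.87. Lysosome and autophagy genes rose in 14 (48.3%) and fell in 6 (20.7%) of 29 tested. The median was 0.32 (0.02 centred, with 9 higher and 9 lower). The autophagy receptor gene Sqstm1 rose 4.27-fold, and the cathepsin genes Ctss and Ctsh, highly expressed by antigen-presenting cells, fell by 3.35 and 3.46 beside the lower dendritic cell marker sum.

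The damage response genes, the pathway of the inhibited kinase, were then set out. Atm itself measured 6.55 and 6.93 in D9KU and 7.001 and 7.22 in D0 and was not called as deposited (-0.37, adjusted p = 0.0720). It was called lower with arrays centred, after quantile normalization (-0.77, adjusted p = 0.00264), with the filter at percentile 75, with a mean-variance trend and without D9KU replicate 2. KU55933 acts on the kinase protein, so this message level does not report whether inhibition took place, and no array value here does. Signalling through ATM and ATR had 12 genes higher (44.4%, against 37.3% of all genes) and 3 lower (11.1%, against 21.9%) of 27 tested. The median was 0.39 (0.10 centred, with 9 higher and 7 lower). Atr, the kinase of replication stress, measured 7.45 and 7.50 in D9KU and 6.03 and 6.09 in D0 (1.42 ± 0.10, adjusted p = 1.36e-05), or 0.61 with the mean of its transcript clusters. Xrcc5, the Ku80 subunit that binds broken ends, rose by 1.74 ± 0.11. H2ax, the histone variant phosphorylated by ATM, measured 8.03 and 7.92 in D9KU and 9.61 and 9.64 in D0 (-1.65 ± 0.11). Chek1 rose by 0.70 ± 0.16 (adjusted p = 0.00626) and lost its call when arrays were centred, and Chek2, a direct ATM target, was not called (adjusted p = 0.625). Homologous recombination and Fanconi genes had 7 higher (31.8%, against 37.3% of all genes) and 1 lower (4.55%, against 21.9%) of 22 tested, with a median of 0.21 (-0.08 centred, with 2 higher and 2 lower). Without D9KU replicate 1 only 3 were called higher, and without either D9KU array or D0 replicate 2 none was called lower. Both fresh arrays were under their array median for 4 of the 22, which passed the filter through activated arrays. No matched member of this list lay below the filter. Blm, the Bloom helicase, rose by 0.96 ± 0.11.

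p53 target genes rose in 17 (63%, against 37.3% of all genes) and fell in 7 (25.9%, against 21.9%) of 27 tested. The median was 0.84 (0.54 centred, with 13 higher and 7 lower). Cdkn1a, which encodes the cyclin-dependent kinase inhibitor p21, measured 10.96 and 10.96 in D9KU and 6.88 and 6.86 in D0 (4.09 ± 0.10, adjusted p = 2.78e-07). Ccng1, a cyclin G gene, measured 11.13 and 11.21 in D9KU and 7.70 and 7.79 in D0 (3.42 ± 0.11). Mdm2, the p53 ubiquitin ligase, measured 10.00 and 10.02 in D9KU and 7.27 and 7.66 in D0 (2.54 ± 0.15). Each of these was far above the fresh arrays in both D9KU arrays. The death receptor gene Tnfrsf10b, under the array median in both fresh arrays, and the stress protein gene Sesn2 rose by 3.52 and 2.94. The list did not move as one: Plk2, Pmaip1, which encodes the BH3 protein NOXA, and Btg2 fell by 2.88, 2.78 and 2.18, and Btg2 is an immediate-early gene as well. Against D9, 0 of the 27 were called, with a median of 0.02. For Cdkn1a the D9KU minus D9 difference was 0.23, with a 95% interval of -0.01 to 0.47, and for Mdm2 it was -0.06, with an interval of -0.41 to 0.29.

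Cell cycle genes showed no common direction. G1/S and replication genes had 13 higher (35.1%) and 4 lower (10.8%) of 37 tested, with a median of 0.26 (-0.04 centred, with 11 higher and 9 lower), and 20 were not called. Without D9KU replicate 2 the number lower was 2. Pole2, a subunit of DNA polymerase epsilon, measured 6.76 and 6.88 in D9KU and 5.03 and 4.66 in D0 and rose 3.93-fold, and the primase genes Prim1 and Prim2 rose by 1.06 and 1.02. G2/M and mitosis genes had 6 higher (17.1%, against 37.3% of all genes) and 6 lower (17.1%, against 21.9%) of 35 tested. Their median was -0.06 (-0.36 centred, with 3 higher and 14 lower). Mki67, the proliferation antigen, measured 7.53 and 7.26 in D9KU and 8.22 and 8.28 in D0 and fell 1.81-fold. Kif23 and Cdc25b, needed for cytokinesis and mitotic entry, fell by 1.203 and 1.52. CDK inhibitors and senescence-linked genes had 7 higher (38.9%) and 5 lower (27.8%) of 18 tested, near the shares of all genes, with a median of 0.12 (-0.18 centred, with 6 higher and 8 lower). Cdkn2b, which encodes p15, measured 8.80 and 8.81 in D9KU and 6.16 and 6.49 in D0, a 5.57-fold rise. The matrix and protease genes of that list fell, with Plaur lower by 2.36 and Timp2 by 1.34 log2 units. Apoptosis regulators had 9 higher (40.9%) and 4 lower (18.2%) of 22 tested, also near the shares of all genes, with a median of 0.30 (-0.00 centred, with 7 higher and 6 lower). Casp8 rose 3.84-fold, the survival gene Bcl2 3.80-fold and Bcl2l11, which encodes the death activator BIM, 3.24-fold.

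MHC class I presentation genes rose in 9 (52.9%, against 37.3% of all genes) and fell in 3 (17.6%, against 21.9%) of 17 tested. Their median was 0.37 (0.07 centred, with 4 higher and 5 lower), and the count higher was smaller without D9KU replicate 1. Erap1, which trims peptides, rose 2.77-fold and Nlrc5, the transactivator of class I genes, fell by 1.10. TGF-beta signalling genes had 6 higher and 7 lower of 19 tested, with a median of -0.13 (-0.43 centred, with 5 higher and 12 lower). Lrrc32, which encodes GARP, the surface anchor of latent TGF-beta, measured 7.07 and 6.83 in D9KU and 3.96 and 4.10 in D0 (2.92 ± 0.12), and the signal transducer gene Smad3 measured 5.20 and 5.34 in D9KU and 7.85 and 8.36 in D0 (-2.84 ± 0.18).

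The untreated day 9 cells were set against D9KU to show which of these values differed with the inhibitor. D9KU minus D0 and D9 minus D0 share the fresh arrays, so only D9KU minus D9, which shares none of them, is read as the comparison with and without inhibitor. It called 138 genes (0.986%), 105 higher (0.75%) and 33 lower (0.236%) in D9KU, of the 13998 tested, with 1710 genes (12.2%) at an unadjusted p below 0.05. Of the 138, 56 (0.4% of the tested) differed at least 2-fold. For comparison, D9 minus D0 called 58% of genes. The D9KU minus D9 calls depended on single arrays. Without D9KU replicate 1 the count was 1 gene, Nkain1, and without D9KU replicate 2 it was 14. It was 11 and 10 without D9 replicates 1 and 2, 24 without either day 4 array, which enter the fit only through the pooled spread, and 255 without either D0 array. A call here is therefore given with the values of its arrays. In most genes described above, the granzymes, TIM-3, p21, the mevalonate enzyme Hmgcs1 and Fos among them, no difference from D9 was called.

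Interferon-stimulated genes had 12 calls against D9, the most of the 32 lists of gene functions. These genes, which encode antiviral proteins, are switched on by interferons through STAT and IRF factors. Of 33 listed 26 were tested. In D9KU against fresh cells, 12 rose and 3 fell, with a median of 0.33 (0.03 centred, with 9 higher and 6 lower). D9 minus D0 gave 3 higher and 14 lower, where 36% and 22% of all genes were called higher and lower, with a median of -0.53, and D9KU minus D9 gave 12 higher and 0 lower, with a median of 0.73. That last count was 0 without D9KU replicate 1, 3 without D9KU replicate 2, 3 and 4 without D9 replicates 1 and 2, and 6 without either day 4 array. Usp18, a protease that removes ISG15 and dampens interferon signalling, measured 7.86 and 7.83 in D9KU, 5.83 and 5.76 in D9 and 5.73 and 6.12 in D0. Its D9KU arrays stood clear of both other groups, whose arrays lay close together (D9KU minus D0 1.92 ± 0.15, D9KU minus D9 2.05, adjusted p = 0.00316). Bst2, the virus-tethering protein tetherin, measured 9.32 and 9.39 in D9KU, 8.72 and 8.64 in D9 and 8.04 and 8.12 in D0. Ifi204, a DNA-binding PYHIN protein, measured 5.34 and 5.46 in D9KU, 2.43 and 2.69 in D9 and 4.06 and 3.73 in D0. Rtp4, an interferon-induced chaperone of receptors, measured 7.34 and 7.52 in D9KU, 5.09 and 5.46 in D9 and 6.52 and 6.74 in D0. For Ifi204 and Rtp4 the D9 arrays were the lowest and the D9KU arrays the highest. Both D9 arrays of Ifi204 lay under their array medians of 3.70 and 3.71. Its difference from D9 thus states only how far D9KU stood above that range. Others had their highest values in fresh cells. Irf7, the master factor of the response, measured 6.84 and 6.80 in D9KU, 5.64 and 5.55 in D9 and 8.11 and 8.36 in D0. Oas2 measured 3.56 and 3.72 in D9KU, 3.19 and 3.68 in D9 and 5.93 and 6.07 in D0. Both D9 arrays of Oas2 were under their array median too.

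**Figure D5:**
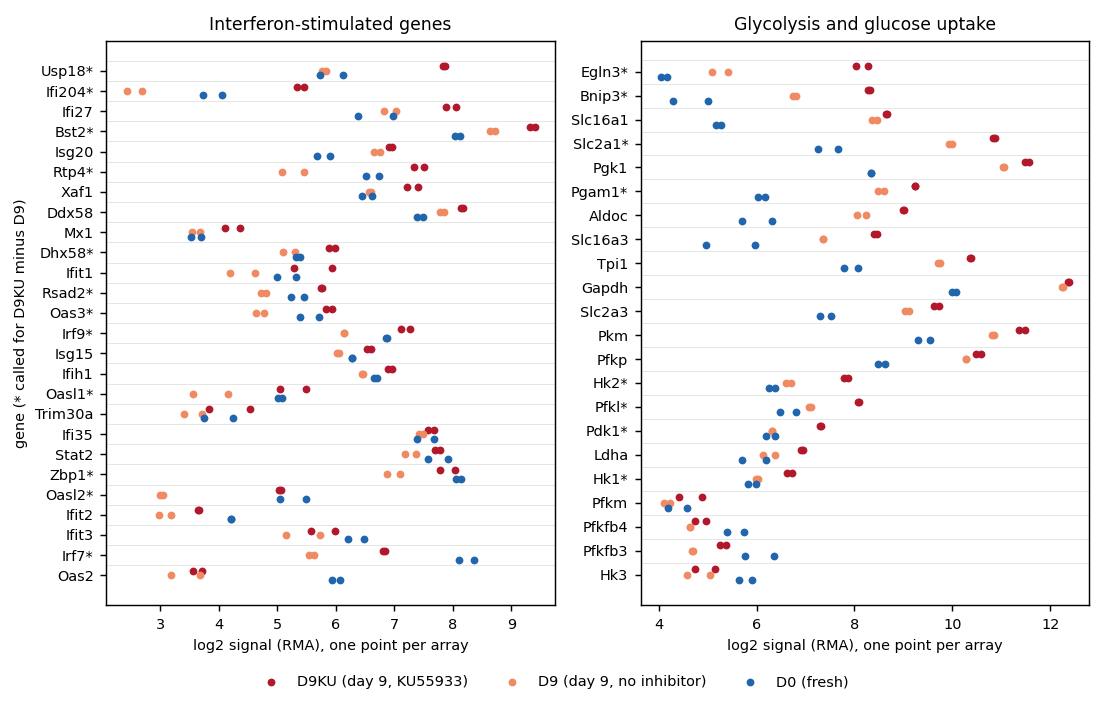
Log2 signal on each D9KU, D9 and fresh array for the tested interferon-stimulated genes (left) and genes of glycolysis and glucose uptake (right), one point per array, ordered by D9KU minus D0, with an asterisk on genes called for D9KU minus D9. On the left most D9 points lie lowest, and on the right most D9KU points lie highest and the fresh points lowest.

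Promoter windows of 3 members are shown, chosen after their values were seen, because they carry an interferon-response motif. The motif searched was GAAA, any 2 bases and GAAA again, on both strands, and capitals mark it. Windows are as above (RefSeq, GRCm38.p6), each along its gene's minus strand.
Bst2 chr8:71537423-71537722: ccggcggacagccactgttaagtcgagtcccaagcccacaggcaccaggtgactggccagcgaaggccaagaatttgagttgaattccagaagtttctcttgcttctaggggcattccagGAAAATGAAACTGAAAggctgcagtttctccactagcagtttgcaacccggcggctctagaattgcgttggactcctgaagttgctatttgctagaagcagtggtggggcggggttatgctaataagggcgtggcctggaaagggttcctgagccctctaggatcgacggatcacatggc
Oas3 chr5:120777610-120777909: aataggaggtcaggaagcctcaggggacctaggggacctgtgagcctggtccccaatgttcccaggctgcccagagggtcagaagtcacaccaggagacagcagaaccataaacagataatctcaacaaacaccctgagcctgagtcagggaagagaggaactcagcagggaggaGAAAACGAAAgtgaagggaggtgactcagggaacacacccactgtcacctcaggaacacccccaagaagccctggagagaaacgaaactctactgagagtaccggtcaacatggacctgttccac
Rsad2 chr12:26456403-26456702: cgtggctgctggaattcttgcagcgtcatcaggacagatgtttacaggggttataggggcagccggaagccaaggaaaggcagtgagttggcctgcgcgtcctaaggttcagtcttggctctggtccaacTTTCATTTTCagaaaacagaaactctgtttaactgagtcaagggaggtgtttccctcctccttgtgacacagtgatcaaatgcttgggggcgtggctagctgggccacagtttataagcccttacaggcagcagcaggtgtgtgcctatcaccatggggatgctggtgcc
Of the 26 tested members 18 had a window in the table, and 10 of these (55.6%) held the motif, against 3.99% of all 27025 genes. Oas3, an RNA-sensing synthetase, measured 5.94 and 5.83 in D9KU, 4.64 and 4.78 in D9 and 5.71 and 5.39 in D0, and Rsad2, the antiviral enzyme viperin, 5.76 and 5.76 in D9KU, 4.72 and 4.81 in D9 and 5.24 and 5.46 in D0. Both were called for D9KU minus D9 (adjusted p = 0.0199 and 0.0257). Against fresh cells Rsad2 was called (adjusted p = 0.0317) and Oas3 was not (adjusted p = 0.0851).

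Glycolysis and glucose uptake had the next most calls against D9, 8 higher and 0 lower of 22, with a median of 0.65. The count was 0 without D9KU replicate 1, 1 without D9KU replicate 2 or either D9 array, 2 without either day 4 array and 15 without either D0 array. D9KU minus D9 was above 0 for each of the 22 tested members (0.12 to 2.90). For Pfkfb3, Pfkfb4 and Hk3, the members lower than in fresh cells, D9KU thus lay nearer to fresh cells than D9 did. Egln3, the oxygen-sensing prolyl hydroxylase PHD3, measured 8.03 and 8.27 in D9KU, 5.10 and 5.41 in D9 and 4.16 and 4.06 in D0 (4.04 ± 0.21 against D0, adjusted p = 3.52e-06). Bnip3, a mitophagy protein, measured 8.32 and 8.28 in D9KU, 6.74 and 6.80 in D9 and 4.30 and 5.00 in D0. Hk2, hexokinase 2, measured 7.86 and 7.78 in D9KU, 6.60 and 6.70 in D9 and 6.39 and 6.26 in D0. In each the D9KU arrays were highest, without overlap with D9 or D0, and the D9KU and D9 arrays did not overlap for 48.1% of all tested genes. Pgam1, phosphoglycerate mutase, measured 9.24 and 9.24 in D9KU, 8.61 and 8.47 in D9 and 6.04 and 6.17 in D0 (3.14 against D0, or 2.45 with the mean of its clusters). The glucose transporter gene Slc2a1 measured 10.82 and 10.87 in D9KU, 10.00 and 9.92 in D9 and 7.25 and 7.66 in D0.

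The windows of Egln3, Bnip3 and Hk2, which like Slc2a1 were picked after their values were seen apart from Egln3, are shown with ACGTG, the core bound by hypoxia-inducible factors, in capitals on both strands. The letters overlap the E-box CACGTG of MYC-type factors.
Egln3 chr12:54203825-54204124: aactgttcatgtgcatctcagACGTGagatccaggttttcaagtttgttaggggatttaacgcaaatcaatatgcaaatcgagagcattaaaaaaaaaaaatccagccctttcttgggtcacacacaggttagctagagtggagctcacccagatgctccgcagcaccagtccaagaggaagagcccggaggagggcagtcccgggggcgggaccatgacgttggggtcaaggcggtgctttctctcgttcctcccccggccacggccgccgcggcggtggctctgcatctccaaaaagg
Bnip3 chr7:138909457-138909756: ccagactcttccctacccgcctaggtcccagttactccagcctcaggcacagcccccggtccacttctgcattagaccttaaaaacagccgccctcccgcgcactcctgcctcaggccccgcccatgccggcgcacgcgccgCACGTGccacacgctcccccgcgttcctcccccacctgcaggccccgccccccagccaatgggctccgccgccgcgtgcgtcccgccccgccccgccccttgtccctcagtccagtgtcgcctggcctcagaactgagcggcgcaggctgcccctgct
Hk2 chr6:82774405-82774704: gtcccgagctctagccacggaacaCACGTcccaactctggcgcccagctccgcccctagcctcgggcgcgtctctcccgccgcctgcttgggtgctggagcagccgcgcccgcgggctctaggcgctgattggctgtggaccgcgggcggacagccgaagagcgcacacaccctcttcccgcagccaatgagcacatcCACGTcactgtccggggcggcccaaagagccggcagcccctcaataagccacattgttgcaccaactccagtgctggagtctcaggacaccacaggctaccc
Of the 22 tested members 21 had a window, and 16 of these (76.2%) held ACGTG, against 21.8% of all 27025 genes. For this and the other motifs, a gene counted if any of its windows matched. Several members, such as Pfkm and Ldha, had multiple windows, and the list includes Egln3 and Bnip3, so the shares are not strictly alike. The same search with TGATGNAAT, a motif of ATF4, found 1 of 24 amino acid genes (4.17%, against 1.08% of all genes), and with TCACNCCAC, a sterol response motif, 1 of 20 cholesterol and fatty acid genes (5.0%, against 1.44%). A match shows that the letters are there and no more.

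Beyond these lists, genes named for the largest D9KU minus D9 differences fell into higher and lower sets. Nkain1, an interactor of the sodium pump, measured 7.93 and 8.42 in D9KU, 5.87 and 5.74 in D9 and 3.90 and 3.97 in D0, and its D9KU minus D9 difference of 2.37 was the one named gene that kept its call without each array in turn. Lrrc32 measured 5.16 and 5.11 in D9, between D9KU and D0. Fads2, the fatty acid desaturase, measured 8.53 and 8.49 in D9KU, 6.65 and 6.76 in D9 and 4.35 and 4.82 in D0. In these 3 genes the inhibitor-treated cells were highest and the fresh cells lowest. The second set was lower with inhibitor. Fam171b measured 5.45 and 5.95 in D9KU, 7.98 and 8.12 in D9 and 3.78 and 3.31 in D0, and Dthd1, a death domain gene, 4.51 and 5.24 in D9KU, 7.19 and 7.27 in D9 and 4.01 and 3.38 in D0. For both, the inhibitor-treated cells lay between fresh and untreated day 9 cells. The trypsin genes Try5 and Try4, near-identical relatives, and the desmoglein gene Dsg3 had the same order. For Itgam the order differed: it measured 6.07 and 5.95 in D9KU, 7.45 and 7.45 in D9 and 9.05 and 9.10 in D0, so inhibitor-treated cells were farthest below fresh cells. Ccl9, Ccl3, Ccl4 and Itgax showed that order too, with Ccl3 at 10.77 and 10.74 in D9. Itgam and Itgax are also carried by myeloid cells, and the macrophage marker sum was 10.30 and 10.39 in D9KU and 10.65 and 10.77 in D9.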

How the data were processed

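The series holds 8 Affymetrix Mouse Gene 2.0 ST arrays. Per transcript cluster and array the authors deposited a log2 signal, made with RMA and Transcriptome Analysis Console per the submitters' processing notes, with versions and genome build not given in the sources used here. Of 41345 clusters, 23521 had 1 gene symbol in the platform annotation, 1820 several and 16004 none. The 22180 genes were represented by their cluster of highest mean, and 13998 were tested, those at or above percentile 50 of an array on at least 2 of 8 arrays, which left 8182 below the filter.

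Group means were fitted on all 8 arrays with limma 3.58.1 (R 4.3.3; lmFit and eBayes, 4 residual and 3.69 prior degrees of freedom). Called means a Benjamini-Hochberg adjusted p below 0.05. Medians and shares of lists are descriptions without a test. The code was tested on simulated data, and figures and sequences were made with Python 3.11.15 and matplotlib 3.10.9. With 2 arrays per group, the number of arrays limits the precision, and dim signals lie near background. Probes may not separate close relatives such as Gzmc to Gzmg, the Klra genes, Try4 and Try5, or Mt1 and Mt2.

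The members and gene lists were chosen with earlier results of these data known. Of 995 list entries 891 were matched by symbol and 3 by gene ID, and 101 had no cluster of a single symbol and were not analysed here, Tcf7 among them. The genes named were the 12 largest increases and 12 largest decreases without overlap, the 4 called members of each list with the lowest adjusted p, a fixed set of NK and damage response genes, and the 8 largest D9KU minus D9 differences in each direction among genes also called against D0. Predicted genes, antigen receptor segments and small RNAs were left out. List members outside that rule, such as Bnip3, Hk2, Slc2a1, Oas3 and Rsad2, were chosen after their values were seen.

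Alternatives covered the filter, the choice of cluster, array weights, centring or quantile normalization, robust or trended moderation, a replicate block, a minimum fold, a fit on 4 arrays and leaving out each array. Replicate numbers come from the labels, which do not say that they pair samples. Deviations of same-numbered arrays correlated at 0.0131 between D9KU and D0 and at -0.0334 between D9KU and D9. A table of the authors' averages, fold changes, p-values and FDR values was deposited too, with 11036 clusters and a highest FDR of 0.0998. It held 7752 of the tested genes, and its averages matched those of the array values within 0.005. It served only as an alternative for the differences.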

Additional observations from a re-analysis of the deposited data

Results flagged for a closer look

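For 32 named genes the change from fresh cells differed with and without KU55933, since the shared fresh arrays cancel and D9KU minus D9 was called by limma (adjusted p below 0.05, 2 arrays each). Values are log2 differences, D9KU minus D9.

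The D9KU cells were higher for 19 genes. The differences were 2.90 for Egln3, 2.84 for Ifi204, 2.37 for Nkain1, 2.16 for Rtp4 and 2.05 for Usp18. For Ifi204 both D9 arrays lay under their array median. Lrrc32 differed by 1.81, Fads2 by 1.80, Ly6g by 1.77, Irf7 by 1.23, Zbtb32 by 1.202 and Ctss by 1.18. Pole2 differed by 1.10, Dusp1 by 1.03, the MHC class II gene H2-Ab1 by 0.96, Ccr7 by 0.83 and Tfrc, the transferrin receptor gene, by 0.79. Pgam1 differed by 0.70, and Bst2 and Il2ra by 0.67 each.

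The D9KU cells were lower for the other 13. Dthd1 differed by -2.36, Fam171b by -2.35, Try5 by -2.02, Dsg3 by -1.67 and Ccl9 by -1.60. Itgam differed by -1.44, the guanylate-binding protein gene Gbp11 by -1.40, Try4 by -1.36, Ccl3 by -1.27 and Ccl4 by -1.16. Itgax differed by -1.02, and Lyz2 and the tryptophanyl-tRNA synthetase gene Wars by -0.68 each. Without D9KU replicate 1, Nkain1 alone of these 32 kept its call.

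Transcript clusters without a gene symbol, which enter none of the comparisons above, also differed between D9KU and D0. Of 7626 such clusters tested, 1340 were called higher and 1773 lower in D9KU (40.8% called).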

How the results depend on the processing

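Against D0, the counts called stayed within 1.5 times of the 8279 reported (5217 higher, 3062 lower) under most alternatives. A 2-fold minimum left 3966, 2732 higher and 1234 lower. The count lower moved to 1763 with the filter at percentile 75, to 4944 with every transcript cluster tested, to 5207 with arrays centred and to 2039 with a minimum of 1.2-fold tested by treat. Quantile normalization gave 58.85% of calls higher. The replicate block gave 8216 calls. Leaving out 1 array gave 6838 to 8605. Of 201 called named genes, 201 kept their sign and 196 their call throughout. The call of Ncr1 was lost in 7 settings: without D9KU replicate 1, D9KU replicate 2 or D0 replicate 2, with no filter, array weights, treat or the 4 arrays alone. Fance and Gata1 lost theirs without D9KU replicate 1, Fancg, Chek1 and Fance with centring, and Fancg under treat. Centring called all 3 of the named genes not called as deposited, Lag3, Atm and Myc. Centring moved 67 and quantile normalization 42 of 138 counts and medians of the lists, and under both, NK receptors, CDK inhibitors and class I presentation had more members lower than higher. Lag3, not called, was -0.10 without D0 replicate 1 and 0.000845 without D0 replicate 2.

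Against D9, 138 genes were called (105 higher, 33 lower), and most alternatives moved that count. It was 49 (33 higher, 16 lower) with no filter, 256 (188 and 68) with the filter at percentile 75, 16 (11 and 5) with every cluster tested, 92 (54 and 38) with arrays centred and 83 (56 and 27) after quantile normalization. A mean-variance trend gave 320 (236 and 84), array weights 333 (244 and 89), the replicate block 60 (42 and 18), treat 26 (16 and 10), the 4 arrays alone 38 (27 and 11) and a 2-fold minimum 56 (37 and 19). Leaving out 1 array gave 1 to 255 genes, 1 to 186 higher and 0 to 69 lower. The count of 0 lower came from limma without D9KU replicate 1, where 1162 genes had an unadjusted p below 0.05. The cause of these shifts was not tested. All 32 named genes kept their sign, and 1 (Nkain1) kept its call under all alternatives. The adjusted p ranged from 8.16e-05 to 0.0572 for Usp18 and Egln3, and from 0.000338 to 0.0853 for Ifi204.

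Alternatives for the interferon and glycolysis counts against D9 were chosen after seeing the data. The interferon count of 12 was 7 with no filter and 6 with the 4 arrays alone. The glycolysis count of 8 was 4 with no filter, 5 with the mean of a gene's clusters, with centring or with the replicate block, 14 with a trend and 16 with array weights.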

Other observations

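Replication and mitosis genes, without a common direction against fresh cells, had positive medians for D9KU minus D9. Of 37 G1/S and replication genes tested 4 were called higher and 0 lower, with a median D9KU minus D9 of 0.42. Of 35 G2/M genes 3 were higher and 0 lower, with a median of 0.36, while the median over all tested genes was 0.02 and 0.986% were called. Top2a, the topoisomerase that untangles replicated DNA, measured 6.94 and 6.97 in D9KU, 6.18 and 6.16 in D9 and 7.08 and 6.99 in D0 (0.79, adjusted p = 0.0239). Mcm5, a subunit of the replicative helicase, measured 7.34 and 7.14 in D9KU, 6.44 and 6.32 in D9 and 7.02 and 7.07 in D0. For Top2a the D9KU arrays lay near the fresh ones and the D9 arrays below both. E2f8, a repressor of E2F targets, measured 5.08 and 4.90 in D9KU, 3.85 and 4.10 in D9 and 5.48 and 5.45 in D0. The kinesin gene Kif11, the cyclin gene Ccna2 and the polymerase epsilon genes Pole and Pole2 were called too. The genes named here were picked after their values were seen, and without D9KU replicate 1 none of these calls remained.

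Some members of other lists were called as well. Ddit3, which encodes the stress factor CHOP, measured 7.50 and 7.65 in D9KU, 8.60 and 8.61 in D9 and 7.68 and 7.89 in D0 (-1.03, adjusted p = 0.0172). Nupr1, another stress-induced regulator, measured 7.54 and 7.69 in D9KU, 8.80 and 8.75 in D9 and 6.53 and 6.78 in D0. Both were lower with the inhibitor than in D9. Lss, lanosterol synthase, measured 8.43 and 8.42 in D9KU, 7.76 and 7.61 in D9 and 5.19 and 5.02 in D0, and the desaturase gene Fads1 measured 7.28 and 7.35 in D9KU, 6.52 and 6.47 in D9 and 5.26 and 5.27 in D0. These lipid genes were highest in D9KU and lowest in fresh cells. The activating receptor gene Slamf7 had that order too, with 10.37 and 10.27 in D9KU, 9.69 and 9.62 in D9 and 9.32 and 9.41 in D0. Without D9KU replicate 1 these calls did not remain either.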
